A study of Rattus norvegicus with 63 samples.

Results

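Acetamide (AA), a small amide that the study classed as a non-genotoxic liver carcinogen, was compared with its own vehicle controls. The comparison used 6 of the 63 rat liver arrays of the series, taken by their labels alone: 3 from rats given AA at 3000 mg/kg/day by gastric gavage for 14 days, and 3 from control set 1, whose rats were gavaged with methylcellulose (MC) for the same 14 days. All were male Wistar Hanover rats, aged 8 to 10 weeks when assigned to dose groups, and each array holds liver RNA of 1 animal. Per the study, the 3 AA rats were taken from 5 because histopathology found liver changes in them, which makes the replicates separate rats that were not sampled at random. Control set 1 also served 5 other compounds, among them methylcarbamate (Mcarb, 400 mg/kg/day for 14 days), which is used below as a second comparison. The labels and the compound overview of the study give MC as the vehicle of both groups, while one sentence of its methods names carboxymethyl cellulose for AA, and a part of such a difference in vehicle was not tested. The question was which liver transcripts changed under AA.

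Hepatocytes, which make up most of the liver, synthesise cholesterol, take up and phosphorylate dietary sugars, and are kept in their differentiated state by nuclear factors such as HNF4A. They also answer interferons, the secreted proteins that signal viral infection: the receptor activates a complex of STAT proteins and IRF9, which binds a short promoter motif, the interferon-stimulated response element, and switches on genes whose products degrade or bind foreign RNA. USP18 is one of these products and damps the receptor in turn.

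Levels are given as log2 intensities after robust multi-array averaging (RMA), in which 1 unit is a 2-fold difference, and differences are AA minus control set 1 unless another pair is named. Probe sets with an adjusted p under 0.05 in a limma fit over all 63 arrays count as called, and a gene is represented by its probe set of highest mean level. The tissue matched its label: the 14 measured hepatocyte markers averaged between 13.04 and 13.20 in AA livers, against 12.98 to 13.04 in control set 1, while the 9 pancreas markers averaged between 6.58 and 6.81 in AA livers and between 6.63 and 6.68 in control set 1. The liver is bulk tissue, in which fewer cells of a type and less RNA per cell cannot be told apart.

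Against control set 1, 739 of 15866 probe sets were called in AA livers, 434 higher (2.74%) and 305 lower (1.92%). Of these, 26 differed by more than 2-fold. Counted over 10411 genes, 190 were higher (1.82%) and 203 lower (1.95%). Of these called genes, 185 had all 3 AA animals above and 191 had all 3 below the 3 controls. Over all 10411 genes these counts were 1635 and 1229, and calls and counts rest on the same animals. The changes were thus mostly below 2-fold, and the 2 largest increases were those of the interferon genes Usp18 and Oas1a. The split into higher and lower moved with the scale: the medians of the AA arrays lay between 7.474 and 7.493, against 7.431 to 7.459 in control set 1, and centring each array on its median gave 293 higher and 509 lower. Of the higher probe sets, 145 of 434 had a mean level under 7, against 55 of 305 lower ones, and at levels of 6 to 7 the shares called were 3.39% higher and 0.987% lower. The part of this offset in the small increases of dim probe sets was not tested.

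Control set 1 itself differed from the other MC sets, with which it shares vehicle and route by the labels. It differed from set 2 at 145 probe sets (0.914%), from set 5 at 339 (2.14%) and from set 6 at 1232 (7.77%). Sets 2, 5 and 6 were not compared with each other, so no set can be named as the one that stands apart. The 9 animals of sets 2, 5 and 6 are given beside the results they bear on. Of the 739 called probe sets, 102 stayed called in the same direction against set 2, 428 against set 5 and 145 against set 6. With the 4 MC sets pooled as controls, 343 stayed called. All 3 AA animals lay above all 12 MC animals for 48 of the 190 higher genes and below all 12 for 39 of the 203 lower genes, beside 111 and 122 of all 10411 genes. Among the 12 highest and 12 lowest called genes the counts were 9 and 3.

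**Figure D1:**
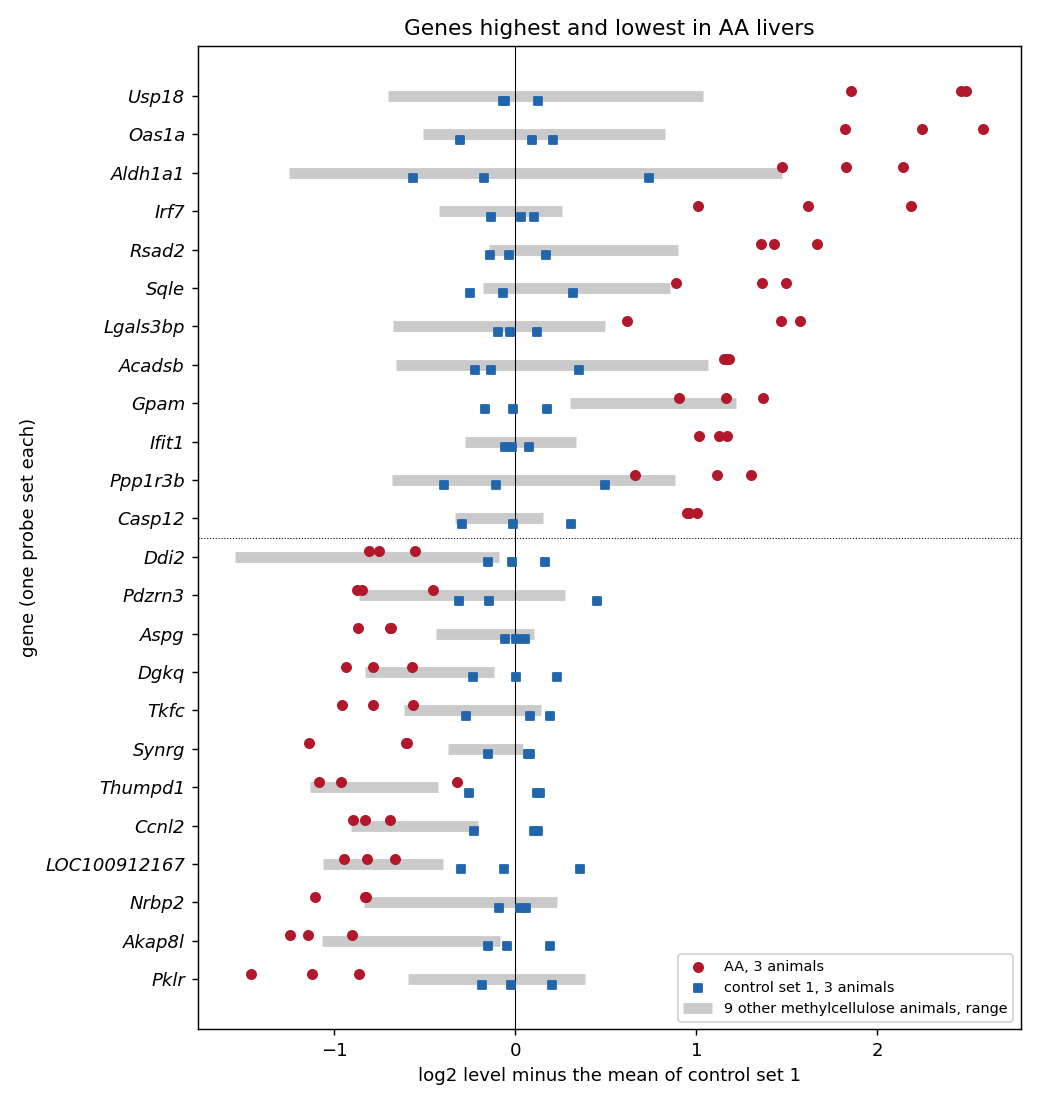
Log2 level minus the mean of control set 1 (x axis) for the 12 called genes highest and the 12 lowest in AA livers (y axis), with each AA animal as a circle, each control set 1 animal as a square and the range of the 9 other MC animals as a grey bar. The AA circles clear the grey bar for 9 of the higher genes, among them Usp18, Oas1a and Irf7, but for only 3 of the lower genes, Pklr, Synrg and Aspg.

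Of 79 measured genes in 3 interferon lists, 12 rose (9 of 30 effectors, 2 of 22 receptors, sensors and regulators, and 1 of 27 genes of the interferon gamma response and antigen presentation) and 1, Irf3, fell, where 1.82% of all genes rose. The median difference over the 30 effectors was 0.29 and 28 of them were above 0, beside a median of 0.01 over all genes. The count of rising interferon genes ran from 10 to 20 over all processing alternatives, and for 10 of the 12 the AA animals lay above all 12 MC animals, Ube2l6 and Eif2ak2 being the exceptions.

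Usp18, the protease that removes ISG15 from proteins and restrains the interferon receptor, had log2 levels of 10.64, 11.28 and 11.25 in AA livers, against 8.92, 8.72 and 8.73 in control set 1. The lowest AA animal was well above the highest control. The difference was 2.27 ± 0.22 (SE, n = 3 each; limma adjusted p = 1.13e-09), or 4.82-fold. Oas1a, an oligoadenylate synthetase that senses double-stranded RNA, had levels of 10.03, 10.46 and 10.80 in AA livers, against 8.31, 7.91 and 8.42 in control set 1. The difference of 2.22 ± 0.31 (limma adjusted p = 5.45e-06) was 4.65-fold, and the groups were again far apart.

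Irf7, the transcription factor that amplifies type I interferon production, had levels of 10.04, 10.65 and 11.22 in AA livers, against 9.06, 8.89 and 9.13 in control set 1. The AA animals differed more among themselves (SD 0.59) than the controls (SD 0.12), but did not overlap them. The difference was 1.60 ± 0.19 (limma adjusted p = 2.56e-07), or 3.04-fold. Rsad2, which encodes the antiviral enzyme viperin, had 8.98, 8.67 and 8.75 in AA livers, against 7.28, 7.49 and 7.18 in control set 1, a difference of 1.49 ± 0.21 (limma adjusted p = 4.55e-06). Lgals3bp, a secreted galectin-binding glycoprotein induced by interferon, had 7.89, 8.74 and 8.84 in AA livers, against 7.39, 7.24 and 7.17 in control set 1, so that AA replicate 1 lay nearer to the controls than to its group. Its difference was 1.22 ± 0.22 (limma adjusted p = 0.000386). Ifit1, which binds RNA lacking the host cap, had 8.999, 8.89 and 9.04 in AA livers, against 7.86, 7.95 and 7.82 in control set 1. These values barely spread within a group, and the difference was 1.10 ± 0.22 (limma adjusted p = 0.00129).

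The other rising interferon genes changed less than 2-fold. Ube2l6, the conjugating enzyme for ISG15, rose by 0.83 ± 0.17 (limma adjusted p = 0.00175), Oasl by 0.65 ± 0.13 and Ifit3 by 0.48 ± 0.08, and none of these calls was lost when any of the 6 animals was left out. Tapbp, the chaperone that loads peptides on class I molecules, rose by 0.40 ± 0.08 in the same way. Sp110, a nuclear body protein, rose by 0.40 ± 0.12, but this call was lost in 5 of the 6 fits that left out 1 animal, each except the fit without control set 1 replicate 4 (differences of 0.36 to 0.43, adjusted p 0.0516 to 0.16). Eif2ak2, the kinase PKR, rose by 0.34 ± 0.10 with overlapping groups and was lost without AA replicate 3 (0.14, adjusted p = 0.411) and without control set 1 replicate 4 (0.26) or 6 (0.33), after centring (0.30) and in the fit of only the 6 compared arrays (adjusted p = 0.286). The effector Mx2 had 6.62, 8.57 and 5.95 in AA livers, against 6.07, 5.58 and 5.78 in control set 1, with AA replicate 2 far above the other animals, and its difference of 1.24 was not called (adjusted p = 0.147). Mx1 differed by 0.56 (adjusted p = 0.0616) and Ifi27l2b by 0.73 (adjusted p = 0.0557).

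Most upstream parts of the pathway did not pass the test. Ifnar2, a chain of the type I receptor, differed by 0.03, Stat2 by -0.06, the kinase gene Tyk2 by -0.03 and the adaptor gene Mavs by -0.08, while Irf9 differed by 0.42 (adjusted p = 0.181). Irf3, the factor that starts interferon transcription once the sensors are active, had 8.72, 8.65 and 8.73 in AA livers, against 9.51, 9.25 and 9.20 in control set 1, a fall of 0.62 on the log2 scale (SE 0.10, limma adjusted p = 0.000101). The AA animals lay within the range of the 9 other MC animals, 8.66 to 9.19, except for replicate 2 just below it, and against control set 6 the Irf3 difference was -0.05 (adjusted p = 0.84). Class II genes such as Cd74 (-0.29, adjusted p = 0.592) and RT1-Da (-0.60, adjusted p = 0.293) were not called.

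**Figure D2:**
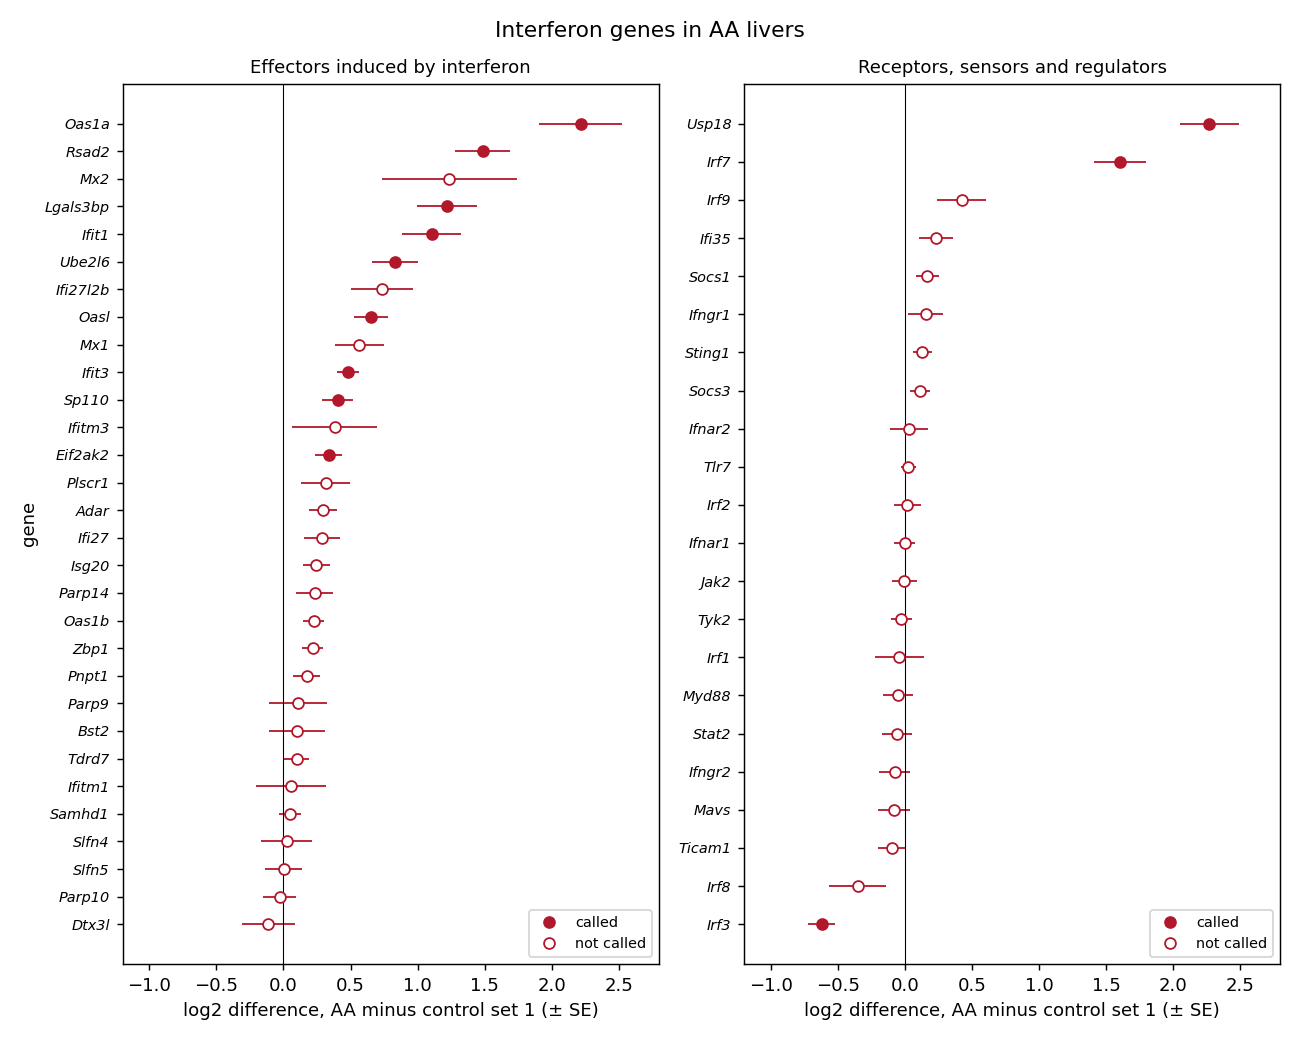
Log2 difference, AA minus control set 1, with its SE (x axis) for 30 interferon-induced effectors (left) and 22 receptors, sensors and regulators (right), filled where called at an adjusted p under 0.05. The effectors run up to 2.22 for Oas1a with 28 of 30 above 0, whereas on the right Usp18 (2.27) and Irf7 (1.60) stand clear of the remainder and Irf3 lies lowest at -0.62.

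The promoters of the rising interferon genes were searched for the motif that the pathway uses, and those with a match are shown. The RefSeq table (build GRCr8) held promoters, from 250 bases before to 50 after the annotated start, for 10 of the 12 rising interferon genes; Usp18 and Ifit1 had no entry. The motif GAAANNGAAA, searched on both strands with overlaps counted, was present in 8 of the 10 (not in Oasl and Ube2l6), in 29 of 65 promoters of all measured interferon genes, in 15 of 151 promoters of all genes higher in AA, in 4 of 168 of those lower in AA and in 3.92% of all 33469 promoters. A match is a description of the letters, not a binding site. The windows below run 5′ to 3′ along the gene, with each match and 20 bases on both sides, and capitals mark the match. On the gene strand it reads GAAANNGAAA and on the other strand TTTCNNTTTC.
Oas1a: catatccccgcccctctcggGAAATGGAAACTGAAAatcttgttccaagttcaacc
Tapbp: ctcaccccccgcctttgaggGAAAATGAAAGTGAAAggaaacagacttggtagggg
Lgals3bp: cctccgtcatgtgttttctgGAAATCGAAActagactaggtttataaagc
Eif2ak2: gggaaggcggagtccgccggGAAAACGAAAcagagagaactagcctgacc
Irf7: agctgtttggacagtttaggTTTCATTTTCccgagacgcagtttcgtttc
Rsad2: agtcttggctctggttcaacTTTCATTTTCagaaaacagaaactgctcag
Ifit3: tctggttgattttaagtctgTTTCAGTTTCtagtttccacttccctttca
Sp110: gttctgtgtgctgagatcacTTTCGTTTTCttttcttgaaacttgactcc

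These windows lie in Oas1a at chr12:41330405-41330460 (plus strand), Tapbp at chr20:4967868-4967923 (minus strand), Lgals3bp at chr10:104127869-104127918 (minus strand), Eif2ak2 at chr6:21941118-21941167 (plus strand), Irf7 at chr1:205800063-205800112 (minus strand), Rsad2 at chr6:48788238-48788287 (minus strand), Ifit3 at chr1:241527262-241527311 (plus strand) and Sp110 at chr9:93670688-93670737 (minus strand). The matches of Oas1a and Tapbp are pairs that overlap, each spanning 16 bases, which in Oas1a run from 41 to 26 bases before the start. In Irf7 the single match runs from 69 to 60 bases before the start, and in Rsad2 from 147 to 138. Over all 8 promoters the matches lie between 147 and 7 bases before the annotated start.

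Usp18 and Oas1a were also high in only 2 other groups of the series. Usp18 averaged 11.06 in AA livers, 11.22 in Mcarb livers and 10.69 in livers of rats given ethionine (ETH, 200 mg/kg/day for 14 days), and in the other 18 groups no animal exceeded 9.83. Oas1a averaged 10.43 in AA, 10.83 in Mcarb and 10.68 in ETH livers, and no animal of the other 18 groups exceeded 9.57. The ranges of the 3 high groups overlapped for both genes.

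**Figure D3:**
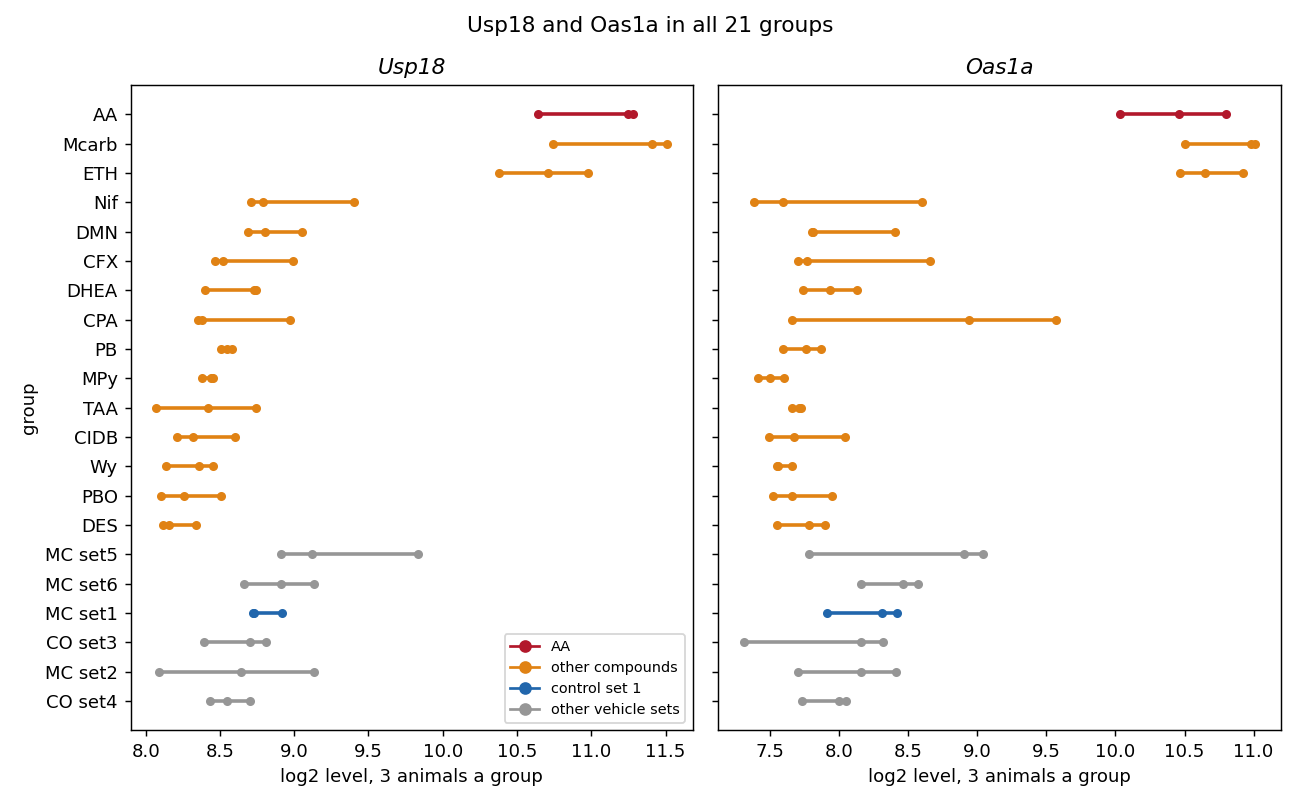
Log2 levels of Usp18 (left) and Oas1a (right) in all 21 groups, with a point for each of the 3 animals of a group and a line over their range (x axis, log2 level; y axis, group; MC, methylcellulose; CO, corn oil). The lowest animal of AA, Mcarb and ETH lies at 10.38 for Usp18 and at 10.03 for Oas1a, above every animal of the other 18 groups (up to 9.83 and 9.57).

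Few markers of other cell types were called. None of 12 macrophage markers was called, but their mean level was 9.43 to 9.68 in the 3 AA livers, against 9.19 to 9.39 in control set 1. The 9 other MC animals ranged from 8.67 to 9.52 with a median of 8.94. Of the 12 markers, 11 were higher on average and 5 had AA animals above all 3 controls, beside 5585 and 1635 of all 10411 genes. With the 4 MC sets pooled as controls 4 of the 12 rose (median 0.50), with array weights 2. Gpnmb differed by 0.83 (adjusted p = 0.122) and Cd68 by 0.29 (adjusted p = 0.513). Of 20 lymphocyte and plasmacytoid dendritic cell markers, Cd4 was called (0.35 ± 0.10) and their mean level was 6.53 to 6.63 in AA livers and 6.50 to 6.56 in control set 1. The Cd4 call was lost without AA replicate 1 (0.29, adjusted p = 0.144) or 2 (0.31) and without control set 1 replicate 4 (0.36) or 6 (0.27), and against control sets 2 (0.23) and 6 (0.25). None of 7 neutrophil and none of 21 stellate cell and matrix markers was called, although against the pooled MC sets 2 of the stellate list rose. The part of immune cells in the interferon result was not tested.

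Of 17 measured enzymes of cholesterol synthesis 3 rose (Sqle, Lss and Sc5d) and none fell, where 1.82% of all genes rose. The count was 8 with array weights, 4 with the 4 MC sets pooled and 2 after centring. The difference was above 0 for 16 of them and its median was 0.42, beside 0.01 over all genes. Sqle, the squalene epoxidase that carries out a rate-limiting oxidation, had 9.92, 9.78 and 9.31 in AA livers, against 8.36, 8.17 and 8.74 in control set 1. The difference was 1.25 ± 0.26 (limma adjusted p = 0.00168), or 2.38-fold, and the AA animals also lay above the other 9 MC animals, though replicate 3 only just (highest of these 9.27). Against control set 2 it was 0.78 and no longer called (adjusted p = 0.123). Lss, the lanosterol synthase, rose by 0.34 ± 0.09 (adjusted p = 0.0203) and Sc5d, a sterol desaturase, by 0.45 ± 0.13 (adjusted p = 0.0382). Lss lost its call in 3 of the 6 fits that left out 1 animal. These were the fits without AA replicate 1 (0.24, adjusted p = 0.18) and without control set 1 replicate 4 (0.31) or 5 (0.32). Sc5d lost its call in 5 of the 6, each except the fit without control set 1 replicate 6. In those 5 fits the Sc5d difference was 0.34 to 0.47, beside 0.45 with all animals, and 0.40 without AA replicate 1 (adjusted p = 0.139). Neither was called against control set 2 (Lss 0.24, Sc5d 0.25) or 6 (Lss 0.25, Sc5d 0.29), or in the fit of only the 6 compared arrays. A second, dimmer probe set of Sc5d differed by -0.14 and one of Lss by 0.07, neither called. Idi1 (0.98, adjusted p = 0.0646), Msmo1 (0.71, adjusted p = 0.0915) and Fdps (0.56, adjusted p = 0.0995) were not called. The mean level of the 17 enzymes was 10.35, 10.11 and 9.87 in the AA livers, all above the 9.66, 9.58 and 9.80 of control set 1, while the 9 other MC animals reached 10.06.

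Around this pathway, Scarb1, the receptor that takes cholesterol from high density lipoprotein, had 10.29, 10.23 and 10.29 in AA livers, against 9.42, 9.28 and 9.76 in control set 1. The difference was 0.78 ± 0.14 (limma adjusted p = 0.000356), a second probe set differed by 0.47 (adjusted p = 0.0667), and against control set 2 the call was lost (0.48, adjusted p = 0.0763). Scarb1 was the only gene called among 20 of sterol regulation and uptake, where 1.82% of all genes rose. Srebf2, the transcription factor of sterol synthesis, differed by 0.24 (adjusted p = 0.0585) and Insig1 by -0.34 (adjusted p = 0.692). Gpam, the acyltransferase that starts triglyceride synthesis, had 8.15, 7.94 and 7.68 in AA livers, against 6.96, 6.77 and 6.61 in control set 1. Its difference of 1.15 ± 0.14 (limma adjusted p = 6.58e-07) depended on which controls were used, since the 9 other MC animals lay between 7.08 and 8.00, and it was 0.29 against set 2 and 0.25 against set 6, neither called. Gpam was the only gene called among 23 of fatty acid synthesis. Scd, the stearoyl-CoA desaturase, was chosen after its values were seen. It had 10.99, 10.998 and 10.96 in AA livers, against 13.23, 13.41 and 12.76 in control set 1. These groups did not overlap, but the 9 other MC animals ranged from 10.95 to 13.39, and the difference of -2.15 ± 0.67 was not called (adjusted p = 0.0529).

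Of 29 glycolysis and gluconeogenesis genes 3 fell (Pklr, Khk and Gckr) and none rose, where 1.95% of all genes fell. Pklr, the liver pyruvate kinase, had 9.92, 10.26 and 10.52 in AA livers, against 11.36, 11.59 and 11.20 in control set 1. The difference was -1.15 ± 0.26 (limma adjusted p = 0.00515), so the level was 2.22-fold lower, and a second probe set gave -1.07. Without AA replicate 1 the Pklr difference was -0.99 and missed the threshold (adjusted p = 0.0509), as it did against control set 2 (-0.85, adjusted p = 0.0901). Khk, the ketohexokinase that phosphorylates fructose, had 10.56, 10.70 and 10.71 in AA livers, against 11.26, 11.15 and 11.20 in control set 1. Its difference of -0.55 ± 0.10 (limma adjusted p = 0.000261) stayed called in every alternative, with values between -0.59 and -0.46. Gckr, which holds glucokinase in the nucleus, had 10.54, 10.72 and 11.08 in AA livers, against 11.49, 11.22 and 11.52 in control set 1, and fell by 0.63 on the log2 scale (SE 0.12, limma adjusted p = 0.000441). The Gckr call was lost against control set 6 (-0.32) and in the fit of only the 6 compared arrays (adjusted p = 0.0703).

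Of the 12 lowest genes, Tkfc, the triokinase that acts after Khk on fructose, had 11.12, 10.94 and 11.34 in AA livers, against 12.09, 11.98 and 11.63 in control set 1. The difference was -0.77 ± 0.21 (limma adjusted p = 0.0236), and this call was lost without AA replicate 1 (-0.76) or 2 (-0.67) and without control set 1 replicate 4 (-0.67) or 5 (-0.73), and against control sets 2 (-0.69) and 6 (-0.40). Slc2a5, a fructose transporter, was chosen after its values were seen. It had 8.22, 8.16 and 8.07 in AA livers, against 8.69, 8.74 and 8.36 in control set 1, a difference of -0.45 ± 0.11 (adjusted p = 0.0139) that was lost without AA replicate 3 (-0.41) and without control set 1 replicate 4 (-0.40) or 5 (-0.38), and against control set 2 (-0.37). Pck1, the gluconeogenic carboxykinase, differed by -0.16 (adjusted p = 0.729) and Pdk4 by 0.21 (adjusted p = 0.748).

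Of the 14 hepatocyte markers Hnf4a, a nuclear receptor, alone was called, with differences of 0.01 for Alb, 0.02 for Ttr and 0.15 for Apoa1. Hnf4a had 9.93, 9.67 and 10.15 in AA livers, against 8.97, 9.03 and 9.19 in control set 1. The difference was 0.85 ± 0.12 (limma adjusted p = 6.14e-06), a second probe set gave 0.49 (adjusted p = 0.00351), and the call was lost against control set 2 (0.38, adjusted p = 0.0979), with 0.46 against set 6. Of the other lists, 2 of 17 pericentral genes rose, Tbx3 among them, and 1 of 24 sex-dependent liver genes, Stat5b. Of all genes 1.82% rose. Tbx3, a factor of pericentral hepatocytes, rose by 0.53 ± 0.09 (limma adjusted p = 9.04e-05), although its 2 dimmer probe sets differed by 0.22 and 0.05 without a call. Stat5b, which relays growth hormone, rose by 0.49 ± 0.09 (limma adjusted p = 0.000261). The nuclear receptor genes Nr5a2 and Rxra, picked after their values were seen, rose by 0.57 ± 0.10 and 0.51 ± 0.10, and Cebpa differed by 0.51 (adjusted p = 0.0515). Against control set 2 the calls of Tbx3 (0.21), Stat5b (0.26) and Nr5a2 (0.31) were lost, against set 6 those of Nr5a2 (0.14) and Rxra (0.19), and in the fit of only the 6 compared arrays that of Stat5b (adjusted p = 0.0544).

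Among enzymes of foreign compound metabolism, 3 of 34 genes of the CYP, CAR and PXR list rose, where 1.82% of all genes rose. Ces2c, a carboxylesterase, rose by 0.86 ± 0.20 (adjusted p = 0.00525) and Ephx1, the microsomal epoxide hydrolase, by 0.55 ± 0.14 (adjusted p = 0.014). Cyp2e1, which oxidises small solvents, rose by 0.48 ± 0.13 (adjusted p = 0.0229). Cyp2e1 was already among the most abundant transcripts, with 14.11, 14.01 and 13.97 in AA livers, against 13.72, 13.67 and 13.28 in control set 1, and its call was lost without AA replicate 1 (0.44) or 2 (0.49) and without control set 1 replicate 6 (0.34). That of Ces2c was lost without AA replicate 1 (0.69) and that of Ephx1 without AA replicate 3 (0.47) and without control set 1 replicate 4 (0.54) or 6 (0.53). Against control set 2 none of the 3 was called, with 0.14 for Cyp2e1 (adjusted p = 0.81), 0.26 for Ephx1 (adjusted p = 0.5) and 0.63 for Ces2c (adjusted p = 0.094), and Cyp2e1 was also not called against set 5 (0.37). Aldh1a1, the retinal dehydrogenase, had 10.91, 10.60 and 10.24 in AA livers, against 9.51, 8.21 and 8.60 in control set 1. Its difference of 1.81 ± 0.46 (limma adjusted p = 0.0145) was lost without AA replicate 1 (1.65), control set 1 replicate 5 (1.53) or control set 1 replicate 6 (1.73) and against control set 2 (0.99), and other MC animals reached 10.25. No other of 53 genes of the NRF2, glutathione and aldehyde list was called, and none of 18 p53 and DNA damage genes, 38 stress and heat shock genes, 31 acute phase genes or 21 genes of the urea cycle, ammonia and acetate was called. With array weights or the 4 MC sets pooled, each of these 4 lists had at most 1 call.

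Of the remaining high genes, Acadsb, a mitochondrial dehydrogenase of isoleucine breakdown, had 8.51, 8.49 and 8.48 in AA livers, against 7.19, 7.68 and 7.10 in control set 1. The AA animals agreed within an SD of 0.015 and the difference was 1.17 ± 0.21 (limma adjusted p = 0.000273), but the other 9 MC animals reached 8.39 and the call was lost against set 2 (0.52) and set 6 (0.29). Ppp1r3b, which tethers a phosphatase to glycogen, had 8.35, 7.90 and 8.54 in AA livers, against 6.85, 7.73 and 7.13 in control set 1 (1.03 ± 0.20, adjusted p = 0.000922). Other MC animals reached 8.12, and the Ppp1r3b call was lost against set 2 (0.70) and set 6 (0.18) and in the fit of only the 6 compared arrays (adjusted p = 0.0723). Casp12, a caspase of the endoplasmic reticulum, had 8.44, 8.43 and 8.49 in AA livers, against 7.79, 7.19 and 7.47 in control set 1, a difference of 0.97 ± 0.24 (adjusted p = 0.0113) that was lost without control set 1 replicate 5 (0.82, adjusted p = 0.0707). Acmsd, of tryptophan breakdown, rose by 0.78 ± 0.22 and Mtr, the methionine synthase, by 0.33 ± 0.10, and both calls were lost without AA replicate 1 or 3 and without control set 1 replicate 4 or 6, Mtr also without replicate 5 (Acmsd 0.63 to 0.81, Mtr 0.23 to 0.35). Against control set 2 Mtr differed by 0.04 (adjusted p = 0.956) and Acmsd by 0.50, against set 6 Mtr by 0.23 and Acmsd by 0.34, and against set 5 Mtr by 0.12, none called. Acmsd and Mtr were the only genes called among 36 of amino acid catabolism, where 1.82% of all genes rose. The list had a median difference of -0.13, with 10 of the 36 above 0, beside 5585 of all 10411 genes. All 3 AA animals lay above the controls for 4 of the 36 and below for 12, beside 1635 and 1229 of all genes. With the 4 MC sets pooled as controls none of the 36 rose and 4 fell.

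The remaining low genes included regulators of splicing, whose calls turned on the choice of controls. Of 53 genes of splicing regulators, Clk kinases and cyclins L, 3 fell and none rose, where 1.95% of all genes fell. Their median was -0.05, but with the 4 MC sets pooled none fell and 2 rose. Akap8l, a nuclear anchoring protein, had 7.72, 7.83 and 8.07 in AA livers, against 9.16, 8.93 and 8.82 in control set 1. The difference was -1.10 ± 0.17 (limma adjusted p = 3.54e-05), and its 2 other probe sets gave -0.62, called, and 0.04, not called. Ccnl2, a cyclin that associates with splicing factors, had 9.33, 9.26 and 9.47 in AA livers, against 10.26, 10.28 and 9.93 in control set 1 (-0.80 ± 0.15, adjusted p = 0.000363). Pnisr, a splicing-associated protein, fell by 0.57 on the log2 scale (SE 0.13, adjusted p = 0.00699), a call lost without control set 1 replicate 4 (-0.47). For these genes control set 1 was the high group: against control set 6 the differences were -0.14 for Akap8l, 0.04 for Ccnl2 and 0.04 for Pnisr, none called, and 9 other MC animals ranged from 7.90 to 8.88 for Akap8l and from 9.25 to 9.96 for Ccnl2.

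Aspg, an asparaginase, had 9.36, 9.54 and 9.54 in AA livers, against 10.24, 10.17 and 10.28 in control set 1. The AA animals lay below all 12 MC animals, with a difference of -0.75 ± 0.18 (limma adjusted p = 0.00844) that became -0.69 (adjusted p = 0.0518) without AA replicate 1. Against control set 2 the Aspg difference was -0.44 (adjusted p = 0.27) and against set 6 -0.33 (adjusted p = 0.31). Synrg, a protein of vesicle coats, differed by -0.78 ± 0.22 (adjusted p = 0.0311), but its second, dimmer probe set differed by 0.46 ± 0.08 in the opposite direction (adjusted p = 0.000287), so no direction can be given for the gene. The Synrg call was also lost without AA replicate 1 (-0.60) and without any 1 of the 3 controls (-0.85 to -0.74), and against each other MC set (-0.67 to -0.57). Nrbp2, a pseudokinase, had 7.72, 7.44 and 7.72 in AA livers, against 8.46, 8.61 and 8.57 in control set 1, a difference of -0.92 ± 0.16 (adjusted p = 0.000304), with other MC animals down to 7.71 and the call lost against control set 6 (-0.40). Dgkq, Thumpd1, Ddi2, Pdzrn3 and LOC100912167, named here as in the annotation, had differences of -0.81 to -0.70, and each of them overlapped the range of the 9 other MC animals. None of the 5 was called against control set 2 (-0.46 to -0.01) or set 6 (-0.45 to 0.32). Thumpd1, a partner of tRNA modification, was lost without AA replicate 1 (-0.64) or 3 (-0.70) and without control set 1 replicate 4 (-0.72) or 6 (-0.73), and Pdzrn3, a ubiquitin ligase, without AA replicate 1 (-0.66) or 2 (-0.65) and without control set 1 replicate 4 (-0.80) or 6 (-0.50).

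Single calls, each a fall, came from 4 further lists, where 1.95% of all genes fell. The lists held 40 genes of PPARA and fatty acid oxidation, 23 bile acid genes, 10 endothelial markers and 11 housekeeping genes. Abcd3, a peroxisomal transporter, fell by 0.50 on the log2 scale (SE 0.13) and was lost without AA replicate 1 (-0.35) and without control set 1 replicate 4 (-0.48) or 6 (-0.45), and against control sets 2 (-0.41) and 6 (-0.33). Fgfr4, a growth factor receptor in bile acid control, fell by 0.32 on the log2 scale and was lost without AA replicate 1 (-0.26) or 2 (-0.31) and without control set 1 replicate 5 (-0.30) or 6 (-0.31), and against control sets 2 (-0.13), 5 (-0.16) and 6 (-0.18). Tie1, the only one of 10 endothelial markers called, fell by 0.29 on the log2 scale and was lost without AA replicate 1 (-0.29) or 3 (-0.28) and without control set 1 replicate 4 (-0.25), and it differed by -0.16, -0.02 and -0.01 from control sets 2, 5 and 6. Sdha, a mitochondrial gene of the housekeeping list, fell by 0.29 on the log2 scale and was lost without AA replicate 2 (-0.24) and against control sets 2 (-0.16) and 6 (0.02). None of 15 periportal, 15 circadian, 14 biliary and progenitor, 9 pancreas or 5 erythroid genes was called. With the 4 MC sets pooled, however, 3 of the 5 erythroid markers fell (median -0.62) and 1 biliary gene rose. The erythroid markers averaged 8.96, 9.65 and 9.63 in AA livers, against 9.40, 9.85 and 9.82 in control set 1 and 9.67 to 10.19 in the 9 other MC animals, and the part of blood content in the results was not tested.

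Cell cycle genes separated the 3 AA animals from each other more than AA from control. The mean level of 46 cell cycle genes was 8.37, 7.63 and 7.35 in AA replicates 1, 2 and 3, against 7.51, 7.49 and 7.49 in control set 1. AA replicate 1 was the highest of the 6 animals for 40 of the 46 genes, and AA replicate 3 the lowest for 25. The difference was above 0 for 45 of the 46 genes and its median was 0.25, beside 0.01 over all genes. Such a spread was not particular to AA, as the list averaged 7.51, 7.83 and 8.63 in the 3 Mcarb livers. Mki67, the proliferation marker, had 6.93, 5.40 and 4.93 in AA livers, against 5.22, 5.19 and 5.29 in control set 1, and the cyclin gene Ccnb1 had 9.31, 7.77 and 7.24 in AA livers, against 7.44, 7.41 and 7.29 in control set 1. With such a spread 1 gene was called, Aurkb, a mitotic kinase, at 0.46 ± 0.14 (adjusted p = 0.0486), where 1.82% of all genes rose. Its groups overlapped, the call was lost in 5 of the 6 fits that left out 1 animal (0.23 without AA replicate 1), each except the fit without AA replicate 3, and it was called against none of control sets 2, 5 and 6 (0.31 to 0.40). Of the 46 genes 0 were called after centring, 5 rose with array weights and 3 with the 4 MC sets pooled. In the same animal, AA replicate 1, the cholesterol list was highest and Irf7, Lgals3bp and the erythroid markers were lowest of the AA group.

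**Figure D4:**
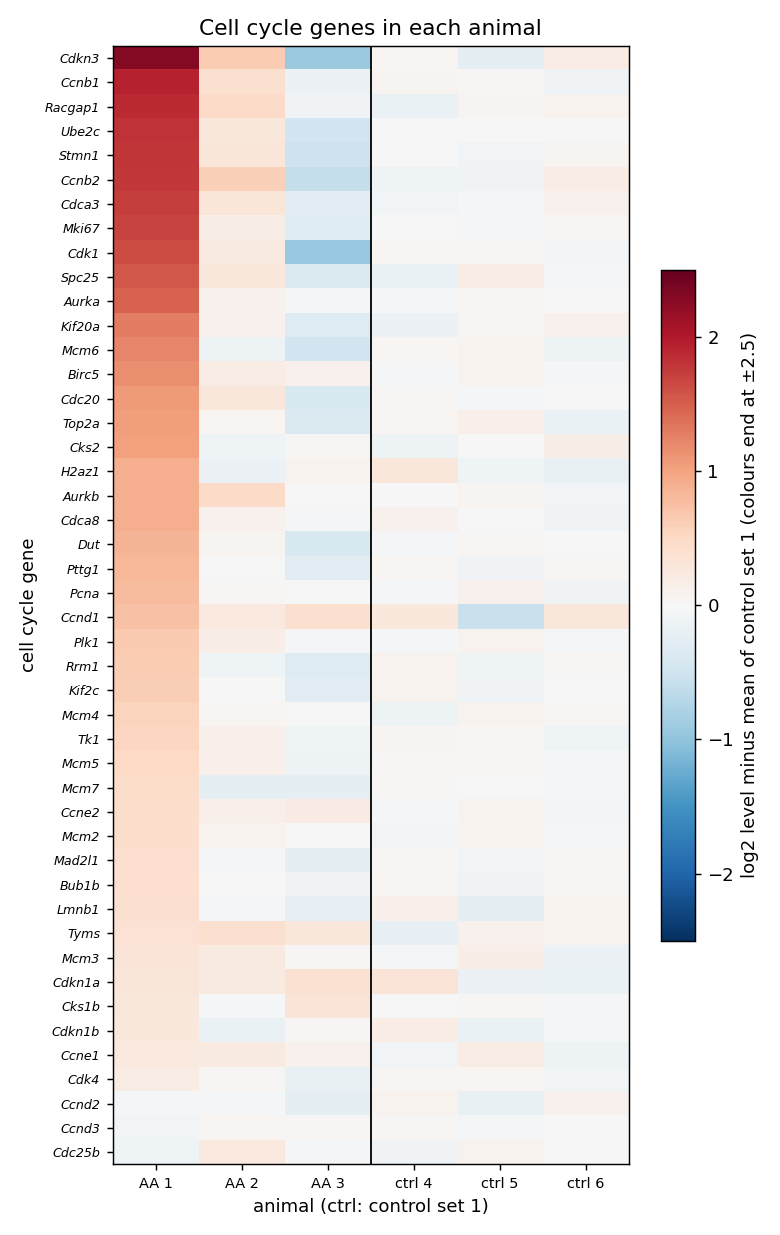
Log2 level minus the mean of control set 1 (colour) for 46 cell cycle genes (y axis, ordered by AA replicate 1) in the 3 AA and 3 control set 1 animals (x axis). AA replicate 1 is red in nearly all rows, AA replicate 2 is pale and AA replicate 3 is pale or blue, with Mki67 at 6.93, 5.40 and 4.93 in these 3 animals.

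**Figure D5:**
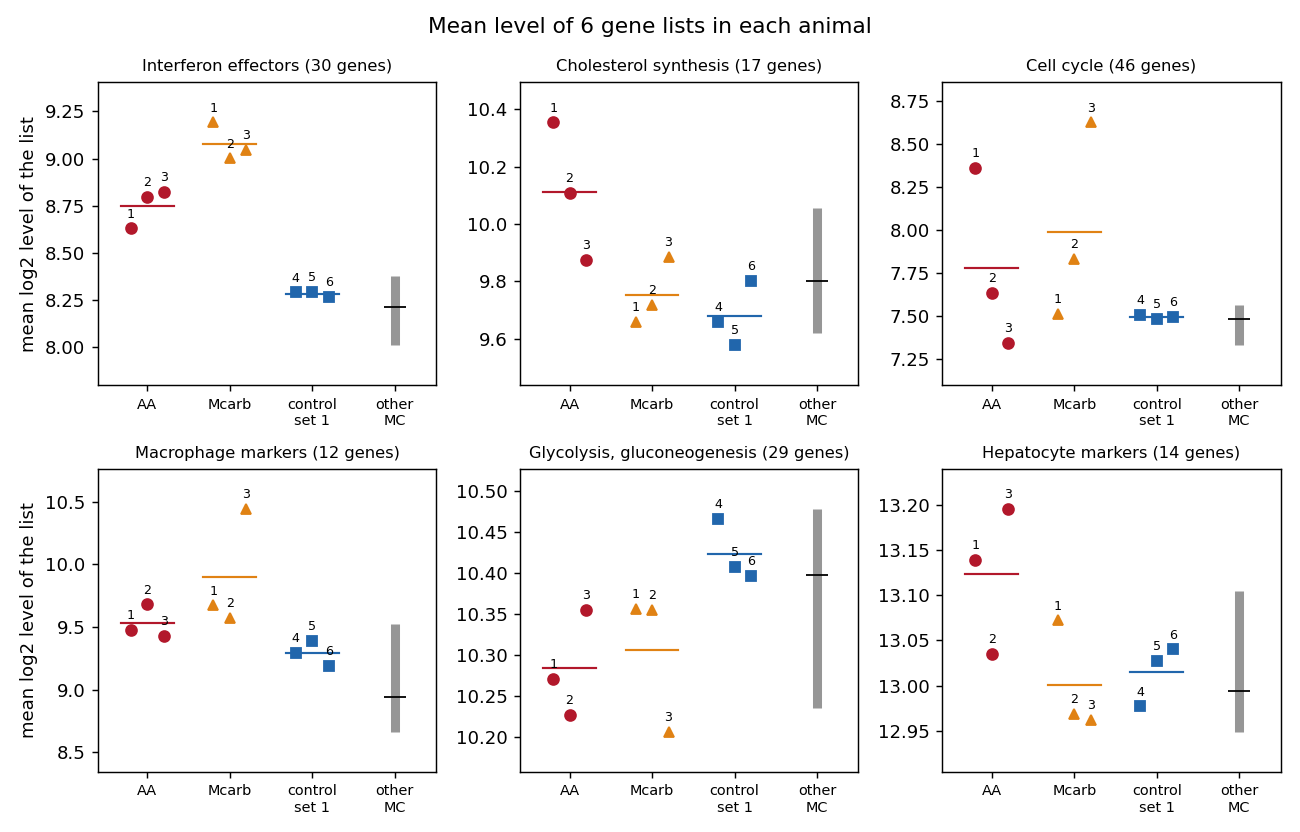
Mean log2 level of 6 gene lists (y axis, a different range in each panel) in each animal of AA, Mcarb and control set 1, with replicate numbers beside the points, lines at the group means, and a bar and tick for the range and median of the 9 other MC animals. The 3 AA animals lie apart from control set 1 for interferon effectors (8.63 to 8.82, against 8.27 to 8.30), and spread most for the cell cycle (7.35 to 8.37). The Mcarb animals also spread most for the cell cycle (7.51 to 8.63).

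AA was also set directly against Mcarb, which used no control animals but compared 2 compounds at their own doses (3000 and 400 mg/kg/day), so that compound and dose cannot be told apart. In the fit over all arrays they differed at 821 probe sets (5.17%), with 208 genes higher (2%) and 273 lower (2.62%) in AA. This count fell to 18 when the fit used only the 6 arrays compared and ran from 349 to 1462 when 1 animal was left out, the extremes being the fits without Mcarb replicate 3 and without Mcarb replicate 2. Without AA replicate 2 it was 412, and without Mcarb replicate 1 it was 520.

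Of the 79 interferon genes, 1 was higher and 17 were lower in AA than in Mcarb, where 2% of all genes were higher and 2.62% lower. Their median difference was -0.24, beside -0.01 over all genes. For this contrast only the total count was recomputed under the alternatives, so how far its single genes hold was not tested. Slfn4, a Schlafen family gene, had 8.04, 8.27 and 8.20 in AA livers, against 9.23, 9.21 and 9.83 in Mcarb livers, a difference of -1.25 ± 0.19 (limma adjusted p = 2.72e-05). Mx1 differed by -1.002 ± 0.18 and Cxcl10, a chemokine, by -0.98 ± 0.17. Ifit1 ran the other way, with 8.999, 8.89 and 9.04 in AA livers, against 9.25, 7.95 and 7.45 in Mcarb livers, whose animals differed widely (0.76 ± 0.22, adjusted p = 0.0324). The genes highest in AA were Acadsb (1.47 ± 0.21), Ppp1r3b (1.43 ± 0.20), Hnf4a (0.95 ± 0.12), Mug1, a protease inhibitor (0.89 ± 0.19), and A1cf, of the Apob editing complex (0.89 ± 0.20). Those lowest also included Anp32a (-0.96 ± 0.27) and Akap8l (-0.86 ± 0.17). Usp18 differed by -0.16, with a 95% interval from -0.61 to 0.28, and Pklr by -0.07 (-0.60 to 0.45), neither called. The macrophage markers averaged 9.43 to 9.68 in AA livers and 9.57 to 10.44 in Mcarb livers, and their part in these differences was not tested.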

How the data were processed

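The authors hybridised liver RNA to Affymetrix rat arrays and deposited log2 values per probe set after RMA, so the scanner intensities were not used here. The number of arrays limits the precision. Of 15866 probe sets, 12783 have 1 gene symbol in the platform annotation, 312 several and 2771 none, and only the first kind names a gene, by its probe set of highest mean (10411 genes).

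Group means of all 21 groups were fitted with limma 3.58.1 (R 4.3.3) and p-values were adjusted by the Benjamini-Hochberg method over all probe sets. With 42 residual degrees of freedom, the fit draws its spread from all 63 animals. With 3 animals on each side, the smallest p of an exact permutation test is 0.1, and none was run. The text names the 12 called genes with the largest increase, the 12 with the largest decrease, called members of the gene lists, and genes said to be chosen after their values were seen. The comparison and lists were chosen with earlier results of these data known. Alternatives changed the arrays fitted, the controls, the scaling, the filter and the animals.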

Additional observations from a re-analysis of the deposited data

How the results depend on the processing

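Of the genes named above, 54 called ones were recomputed under the alternatives, and 11 of them were called under all: Ifit1, Ifit3, Irf7, Khk, Lgals3bp, Oas1a, Oasl, Rsad2, Tapbp, Ube2l6 and Usp18. Another 18 of the 29 that were called whichever animal was left out lost their call under some other alternative. The counts of calls moved more (434 higher, 305 lower, 12 interferon genes and 821 against Mcarb in the fit over all arrays). Fitting only the 6 arrays compared gave 195 higher and 129 lower, and 18 against Mcarb. Array weights gave 849, 633, 19 and 1240. Control set 2 in place of set 1 gave 165 and 71, and control set 5 gave 783 and 804 with 20 interferon genes. Control set 6 gave 437 and 361, although only 145 of the 739 calls were kept in the same direction. Centring gave 509 lower, and averaging a gene's probe sets, which tests fewer features, gave 192, 165 and 411. Leaving out 1 animal gave 200 to 350 higher, 116 to 252 lower, 10 to 14 interferon genes and 349 to 1462 against Mcarb. The lowest counts were without control set 1 replicate 6 (200 and 116), and counts also moved by over 1.5 times without control set 1 replicate 4 (212 and 119), without AA replicate 1 (262 and 143) and, for lower probe sets, without AA replicate 2 (150). Against control set 6 the differences of LOC100912167 (0.04), Ccnl2 (0.04), Ddi2 (0.32), Pnisr (0.04) and Sdha (0.02) turned positive. The cause was not tested. AA and Mcarb share replicate numbers, and with the number as a replicate block on those 6 arrays 0 probe sets were called, against 18 without it. Deviations of same-numbered animals correlated at -0.286, 0.223 and -0.081, and those of differently numbered animals at -0.293 to 0.348. Deviations from a mean of 3 animals depend on each other, so these values cannot show whether same-numbered animals share more than the number. AA and control set 1 share no numbers.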
